A study of Mus musculus with 12 samples.

Results

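Expression of the metabolic regulators of the PGC-1, ERR and PPAR families was followed in cultured mouse cardiomyocytes across 4 treatments. The members were the rows of the gene table named Ppargc1a, Ppargc1b, Perm1, Esrra, Esrrb, Esrrg, Ppara, Ppard, Nrf1 or Tfam. They make up 10 of the 22915 genes in the table, and all 10 were among the 13184 genes that passed the filter on low values. Primary cardiomyocytes came from adult male C57/Bl6 mice, 12 weeks old, and were kept for 24 h under normoxia with PBS or with a recombinant cytokine, at 25 ng/mL per the labels. The study's methods name another dose. mLIF is leukemia inhibitory factor of the mouse and mOSM is mouse oncostatin M. The protein called hlOSM, for human-like OSM, is an engineered mouse OSM that carries the AB loop of the human protein. In mouse cells mLIF signals through the LIF receptor, mOSM through the OSM receptor and hlOSM through both, so the comparisons ask what each receptor does alone and what both do together. Each condition had 3 libraries. The labels do not state whether libraries with the same replicate number share a cell preparation, and the p-values measure the spread between these libraries, which may be technical. The values hold almost no gene-specific difference between replicate numbers. In the 4134 genes with a mean of at least 200, the mean deviation of a number from the condition means lay from -0.013 to -0.011 for number 1, -0.018 to -0.016 for number 2 and 0.028 to 0.030 for number 3 (5th to 95th percentile, log2 scale), against a median SD within conditions of 0.077. The fit reported here counts that missing variation as freedom, so its errors are too small, and a fit with the number as a block (median SE over all tested genes larger by a factor of 1.14) is given beside each single-gene call printed below that it ends. All values below are normalized counts, scaled between libraries by the authors and rounded, with library totals of 2745748 to 2911891.

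The coactivators PGC-1α (Ppargc1a) and PGC-1β (Ppargc1b) bind no DNA themselves. They dock on nuclear receptors, above all the estrogen-related receptors ERRα, ERRβ and ERRγ and the fatty acid sensing receptors PPARα and PPARδ, and on the nuclear respiratory factor NRF1, and so raise transcription of genes for fatty acid oxidation, the respiratory chain and mitochondrial DNA upkeep. The adult heart, which draws most of its energy from fatty acids, holds this network at a high level.

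Of the comparisons with PBS, that of mOSM called a larger share of the regulators than of all genes, and the shares with mLIF and hlOSM were near those of all genes. A gene was called at an adjusted p under 0.05 in limma, adjusted over all genes tested. With mLIF, 0 of the 10 members were higher and 1 was lower than with PBS, against 5.47% of all tested genes higher and 4.44% lower. In limma, 5 of the 10 had an unadjusted p under 0.05 in that comparison, as did 25.7% of all genes. With mOSM, 2 were higher and 5 lower than with PBS, where the same calls took 15.4% and 15.8% of all genes. That count of 7 (31.2% of all genes in either direction) was 5 with the replicate block (25.3% of all genes) and 4 without mOSM replicate 1 (26.4% of all genes). With hlOSM, 1 was higher and 3 were lower, against 18.2% and 19.8% of all genes. At an unadjusted p under 0.05 in limma, 9 of the 10 passed with mOSM and 7 with hlOSM, against 41.1% and 46.5% of all genes. Between hlOSM and mOSM themselves 1 member was called, so the unequal counts are no measure of how far these cytokines differ. Relative to PBS, the median log2 fold change of the 10 members was -0.01 for mLIF, -0.24 for mOSM and -0.19 for hlOSM, while the corresponding medians over all tested genes were 0.00037, -0.00432 and -0.00525. The comparisons with PBS share the same control libraries. The members were chosen with earlier results of these data known, so their shares beside those of all genes are descriptions. In a test of any difference among the 4 conditions, 6 members were called, against 34.2% of all genes. In these bulk samples, fewer cells of a type and less RNA per cell cannot be told apart.

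**Figure D1:**
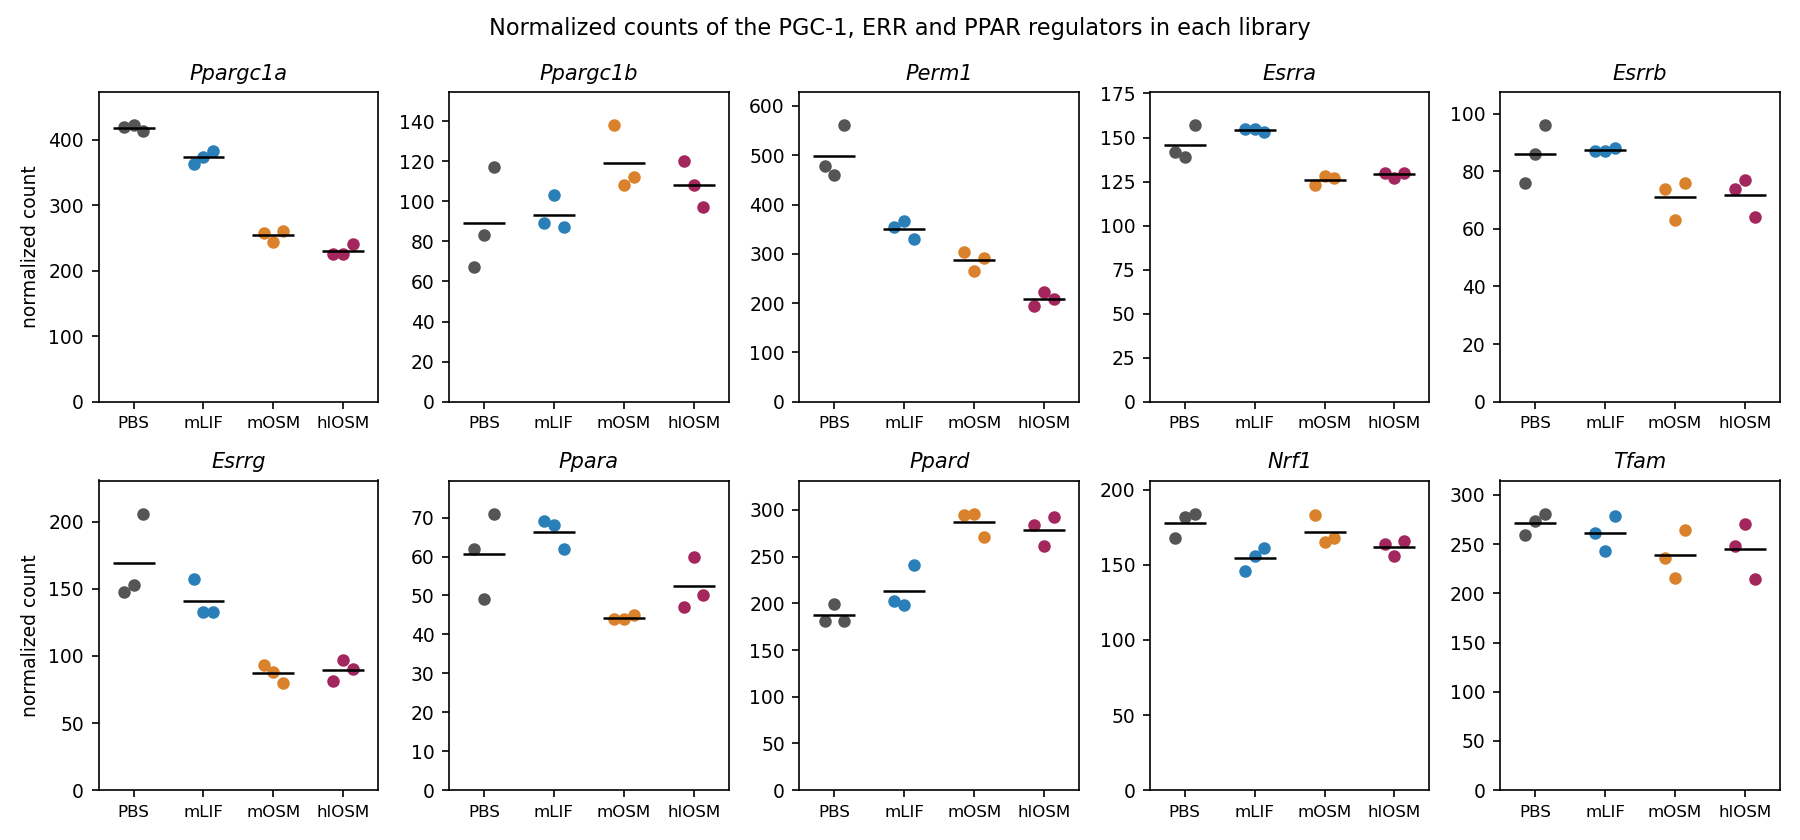
Normalized counts of the 10 regulators (y axis, starting at 0) in each of the 12 libraries, grouped on the x axis by condition; each point is a library and the line is the mean of 3. Ppargc1a, Perm1 and Esrrg are low with mOSM and hlOSM, Ppard is high, and Tfam overlaps among all conditions.

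Ppargc1a, the best known coactivator of the network, stood at 419, 422 and 413 normalized counts with PBS and at 363, 374 and 382 with mLIF. Its counts were 257, 244 and 261 under mOSM and 225, 225 and 240 under hlOSM. The libraries of the 4 conditions did not overlap. Against PBS, Ppargc1a fell by 39.2% with mOSM (log2 fold change -0.72, SE 0.06, adjusted p = 5.26e-09). With hlOSM it fell by 44.9% (log2 fold change -0.86, SE 0.06, adjusted p = 2.05e-10). The mLIF libraries all lay below the PBS libraries, yet the log2 fold change of -0.16 missed the threshold (adjusted p = 0.0821, 95% interval -0.29 to -0.04). Fitted on the PBS and mLIF libraries alone it passed (adjusted p = 0.039), and the adjusted p ranged from 0.039 to 0.225 over the alternatives. Set against the mLIF libraries, Ppargc1a had a log2 fold change of -0.55 under mOSM (adjusted p = 7.09e-07) and of -0.70 under hlOSM (adjusted p = 1.77e-08).

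Ppargc1b encodes the closest relative of PGC-1α and was called upward with mOSM, but not in the test among the 4 conditions (adjusted p = 0.0634). It stood at 67, 83 and 117 with PBS, 89, 103 and 87 with mLIF, 138, 108 and 112 with mOSM, then 120, 108 and 97 with hlOSM. PBS replicate 3 lay within the range of the cytokine-treated libraries, so the groups overlapped. Its rise of 36.4% with mOSM passed the threshold (log2 fold change 0.45, SE 0.15, adjusted p = 0.0225). That call was lost without PBS replicate 1 (log2 fold change 0.27, adjusted p = 0.165), PBS replicate 2 (adjusted p = 0.0671) or mOSM replicate 1 (adjusted p = 0.126). With hlOSM the log2 fold change of 0.31 missed the threshold (adjusted p = 0.0964, 95% interval 0.01 to 0.62), and it was 0.53 without PBS replicate 3, where it passed (adjusted p = 0.00307), but 0.13 without PBS replicate 1 (adjusted p = 0.504). Ppargc1b did not pass against mLIF with mOSM (log2 fold change 0.35, adjusted p = 0.134), but did on the libraries of those conditions alone (adjusted p = 0.0312) or without PBS replicate 3 (adjusted p = 0.0449). Counts of both coactivators in the same library show their unequal change. The ratio of the Ppargc1a count to the Ppargc1b count, not corrected for gene length, was 6.25, 5.08 and 3.53 with PBS and 4.08, 3.63 and 4.39 with mLIF. It was 1.86, 2.26 and 2.33 with mOSM and 1.88, 2.08 and 2.47 with hlOSM, below every PBS and mLIF library.

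Perm1 is induced in striated muscle by PGC-1 and the ERRs and takes part in the expression of their oxidative targets. It was the member with the largest fall in the comparisons of mLIF and hlOSM with PBS. Its counts were 478, 459 and 561 with PBS, 355, 366 and 330 with mLIF, 304, 265 and 292 with mOSM, then 194, 222 and 208 with hlOSM. The values stepped down from condition to condition with no overlap, and PBS replicate 3 was the highest. With mLIF the log2 fold change was -0.51 (SE 0.08, adjusted p = 0.000335), and Perm1 was the member called in that comparison. With mOSM it was -0.79 (SE 0.08, adjusted p = 5.95e-08). With hlOSM it fell by 58.1% (log2 fold change -1.26, SE 0.08, adjusted p = 3.66e-11).

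Of the ERR genes, Esrrg showed the clear change. ERRγ is abundant in oxidative tissue and drives the metabolic program of the maturing heart. Esrrg stood at 148, 153 and 206 with PBS, 157, 133 and 133 with mLIF, 93, 88 and 80 with mOSM, then 81, 97 and 90 with hlOSM. Every mOSM and hlOSM library lay below every PBS and mLIF library, while PBS and mLIF overlapped. With mOSM, Esrrg fell by 47.7% (log2 fold change -0.94, SE 0.12, adjusted p = 1.47e-06). With hlOSM the log2 fold change was -0.90 (SE 0.12, adjusted p = 1.86e-06). With mLIF it was -0.25 and was not called (adjusted p = 0.176, 95% interval -0.49 to -0.01). Over the alternatives the mLIF value ranged from -0.335 to -0.098, at adjusted p between 0.0968 and 0.658.

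Esrra encodes ERRα, the main partner of PGC-1α on respiratory chain genes, and its changes were small. It stood at 142, 139 and 157 with PBS, 155, 155 and 153 with mLIF, 123, 128 and 127 with mOSM, then 130, 127 and 130 with hlOSM. All mOSM and hlOSM libraries lay below all PBS and mLIF libraries. Against PBS, Esrra had a log2 fold change of -0.21 with mOSM (SE 0.08, adjusted p = 0.0425). That call did not hold with no filter on low values (adjusted p = 0.0589), on the libraries compared alone (0.0904) or with the replicate block (0.107). It was also lost, at adjusted p between 0.051 and 0.193, without any single library of mLIF or mOSM, PBS replicate 1 or 3, or hlOSM replicate 1 or 2. With hlOSM the log2 fold change was -0.18 (adjusted p = 0.0772, 95% interval -0.34 to -0.02) and passed after quantile rescaling (0.0266). Between the cytokines, the log2 fold change of Esrra from mLIF to mOSM was -0.29 (adjusted p = 0.0135), a call lost with the replicate block (0.0524) and without mLIF replicate 1 (0.0517), mLIF replicate 2 (0.054) or mOSM replicate 1 (0.0538). It was also lower with hlOSM than with mLIF (log2 fold change -0.26, adjusted p = 0.0238), a call lost with the replicate block (0.077) and without mLIF replicate 1 (0.0728), 2 (0.0769) or 3 (0.0545) or hlOSM replicate 1 (0.0568) or 2 (0.0737). Esrrb, the member of the family best known from stem cells, ranged from 63 to 96 over the 12 libraries and was called in no comparison. Its log2 fold change was -0.27 with mOSM (adjusted p = 0.0726, 95% interval -0.51 to -0.04) and -0.26 with hlOSM (adjusted p = 0.0769). The mOSM value passed after quantile rescaling (0.0417), and without PBS replicate 1 both passed (0.035 and 0.0364).

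Of the PPAR genes, Ppard was called upward with both OSM receptor ligands and Ppara downward with mOSM. Ppard encodes PPARδ, a receptor for fatty acids found in most tissues, and stood at 181, 199 and 181 with PBS and at 202, 198 and 241 with mLIF. It stood at 295, 296 and 271 with mOSM and at 284, 261 and 292 with hlOSM. Every mOSM and hlOSM library was above every PBS and mLIF library. The rise was 53.4% with mOSM (log2 fold change 0.62, SE 0.08, adjusted p = 2.53e-06). With hlOSM the log2 fold change was 0.58 (SE 0.08, adjusted p = 4.92e-06), and with mLIF it was 0.19 and was not called (adjusted p = 0.136, 95% interval 0.02 to 0.35). Ppara encodes PPARα, the receptor best known for switching on fatty acid oxidation in heart and liver. It stood at 62, 49 and 71 with PBS, 69, 68 and 62 with mLIF, 44, 44 and 45 with mOSM, then 47, 60 and 50 with hlOSM. The mOSM libraries lay below all others, whereas hlOSM overlapped PBS. With mOSM, Ppara had a log2 fold change of -0.43 (SE 0.14, adjusted p = 0.0201), and that call was lost with the replicate block (0.0515) and without PBS replicate 1 (0.058), PBS replicate 3 (0.131) or mOSM replicate 1 (0.0517). With hlOSM it was -0.20 and was not called (adjusted p = 0.262, 95% interval -0.49 to 0.08). The ratio of the Ppard count to the Ppara count was 2.92, 4.06 and 2.55 with PBS and 2.93, 2.91 and 3.89 with mLIF. It was 6.70, 6.73 and 6.02 with mOSM and 6.04, 4.35 and 5.84 with hlOSM, above every PBS and mLIF library.

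Nrf1 and Tfam link the network to the mitochondrial genome. NRF1 is a transcription factor for respiratory chain genes and for Tfam, whose product packages mitochondrial DNA and starts its transcription. Neither gene was called in any of the comparisons run. Nrf1 ranged from 146 to 184 over the 12 libraries, with log2 fold changes of -0.21 under mLIF (adjusted p = 0.0902), -0.05 under mOSM (0.662) and -0.13 under hlOSM (0.172). Its mLIF libraries lay below its PBS libraries, with a 95% interval of -0.36 to -0.05. Tfam ranged from 215 to 281, with log2 fold changes of -0.06 for mLIF, -0.19 for mOSM and -0.15 for hlOSM. The 95% interval of the Tfam change with hlOSM ran from -0.33 to 0.02. The mOSM change of Tfam (adjusted p = 0.0994) passed without mOSM replicate 3 (0.0285).

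**Figure D2:**
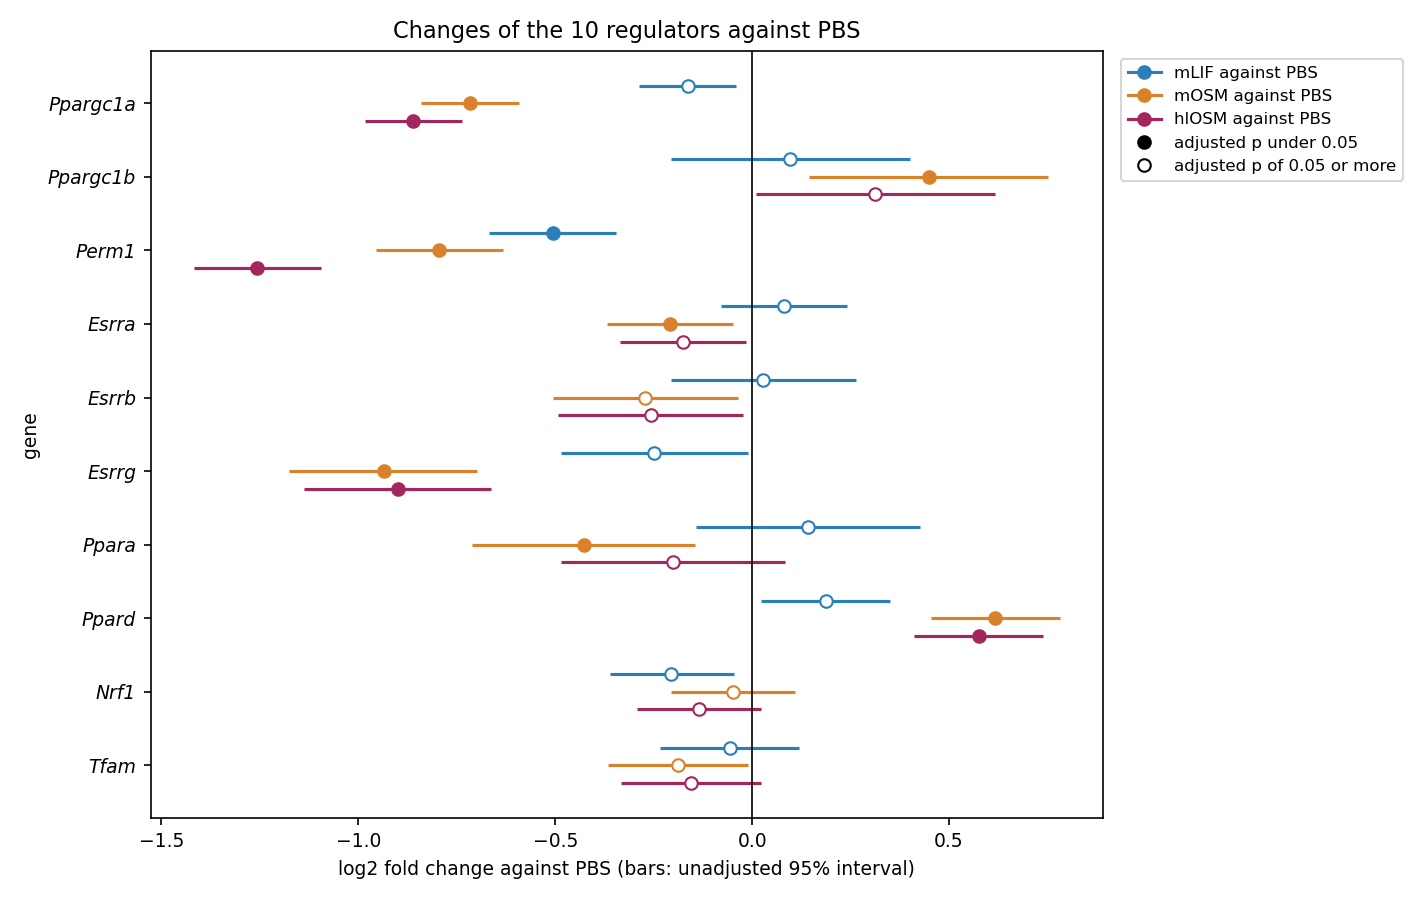
Log2 fold changes of the 10 regulators (y axis) against PBS (x axis, log2 scale), with bars for the unadjusted 95% interval from limma over 3 libraries a group; filled points have an adjusted p under 0.05. Perm1 is the gene called with all cytokines, and Ppard the gene called upward with both OSM receptor ligands.

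The comparisons between cytokines set ligands of different receptors side by side at the same dose and time. The receptor used and the strength of the ligand cannot be told apart in them. With mOSM against mLIF, 1 member was higher (Ppard, log2 fold change 0.43, adjusted p = 0.000589) and 5 were lower, where 6.05% of all tested genes were higher and 5.76% lower. The 5 lower members were Ppargc1a, Perm1, Esrra, Esrrg and Ppara. Esrrg was lower by the largest margin, with a log2 fold change of -0.69 (adjusted p = 0.000207). Ppara followed at -0.57 (adjusted p = 0.00672). Perm1 had a log2 fold change of -0.29 (adjusted p = 0.0156), and its call was lost without mLIF replicate 1 (0.0615), mLIF replicate 2 (0.0877) or mOSM replicate 2 (0.087). With hlOSM against mLIF, 1 member was higher and 4 were lower, against 7.42% and 9.22% of all genes. There Perm1 had a log2 fold change of -0.75 (adjusted p = 3.15e-07) and Esrrg of -0.65 (adjusted p = 0.000291). Ppard was higher, by 0.39 on the log2 scale (adjusted p = 0.00129). Ppara, at -0.34, was not called in that comparison (adjusted p = 0.0947).

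hlOSM against mOSM compares a ligand of both receptors with a ligand of the OSM receptor alone, and a difference in ligand strength was not tested. In that comparison 1 member was called, against 0.106% of all tested genes, which is 14 genes. The member was Perm1, lower with hlOSM by a log2 fold change of -0.46 (SE 0.08, adjusted p = 0.0189), with every hlOSM library under every mOSM library. The call was lost with the replicate block (adjusted p = 0.0503, with 2 genes called in all), on the mOSM and hlOSM libraries alone (0.0547) and without mOSM replicate 1 (0.11), mOSM replicate 3 (0.13) or hlOSM replicate 1 (0.11). The log2 fold change stayed between -0.52 and -0.41 over the alternatives, and the adjusted p between 0.00463 and 0.13. Ppargc1a also had no overlap, at a log2 fold change of -0.14, but was not called (adjusted p = 0.578, 95% interval -0.27 to -0.02). Ppara had no overlap either and went the other way, at 0.23, again not called (adjusted p = 0.742, 95% interval -0.06 to 0.51). For Esrrg the interval of this difference was -0.20 to 0.28, and for Ppard it was -0.21 to 0.12. Whether the effects of mLIF and mOSM add up to that of hlOSM on the log2 scale was tested as a departure from additivity. No member departed in limma (0 of 10, and 0 at an unadjusted p under 0.05), against 0.167% and 11.5% of all tested genes. For Perm1 the departure was 0.04 (95% interval -0.19 to 0.27), for Ppargc1a it was 0.02 (-0.15 to 0.20), and for Ppard it was -0.23 (-0.46 to 0.00). In the reported fit the largest was that of Esrrg at 0.28 (-0.05 to 0.62), and for Ppargc1b it was -0.23 (-0.66 to 0.20). Over the alternatives the departure ranged from 0.13 to 0.37 for Esrrg and from -0.45 to -0.05 for Ppargc1b. Which member was largest thus depended on the setting, and these 95% intervals leave room for sizeable departures.

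Levels of different genes were compared as normalized counts per kb of exon. With PBS, Perm1 was first at 128 per kb, above all others in every library. Ppargc1a (63.4 per kb) and Tfam (61.1 per kb) came next and overlapped each other, followed by Esrra at 33.3, Esrrg at 27.2, Ppard at 24.9 and Ppargc1b at 22.3 per kb, of which neighbours overlapped. Nrf1 (17.3), Ppara (15.8) and Esrrb (14.2 per kb) closed the order, again with overlapping neighbours, and Nrf1 also overlapped Ppargc1b. With mLIF, Perm1 (89.8 per kb), Tfam (58.8) and Ppargc1a (56.6) led, the latter pair overlapping. With mOSM, Perm1 (73.6 per kb) and Tfam (53.8) were followed by Ppargc1a (38.5) and Ppard (38.2), which overlapped. With hlOSM, Tfam (55.1 per kb) and Perm1 (53.3) overlapped at the top, Ppard (37.1) and Ppargc1a (34.9) overlapped below them, and Esrrg (14.4) lay in the lowest group with Nrf1 (15.8), Ppara (13.6) and Esrrb (11.9). Thus Perm1 stood at the level of Tfam with hlOSM, and Ppargc1a at that of Ppard, within the spread of the libraries.

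All 10 members are protein-coding genes. In mm10, Ppargc1a (ENSMUSG00000029167) lies on chromosome 5 from 51454250 to 51567726 on the reverse strand. Perm1 (ENSMUSG00000078486) is a compact gene on chromosome 4, from 156215868 to 156221307 on the forward strand. Esrrg (ENSMUSG00000026610) spans 187608791 to 188214885 on chromosome 1, and Ppard (ENSMUSG00000002250) spans 28232700 to 28301474 on chromosome 17, both on the forward strand. No exon of 9 members overlaps an exon of another annotated gene. Of the exon bases of Esrra, 3.74% are shared with Mir6990 on its own strand or with Trmt112 on the other, and the strand setting of the counting is not given in the sources used here.

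Promoter sequences show which binding elements of the network lie next to the members' own starts. RefSeq windows on GRCm38.p6, from 250 bases before to 50 after a start, matched 9 of the 10 members (14 windows). Both strands were searched for the ERR element AAGGTCA, found in 4.72% of all 32851 windows, and for a direct repeat of AGGTCA spaced by a single base, the PPAR and RXR element, found in 0.0396%. The NRF1 core GCATGCGC is in 2.71% of the windows, the ETS core CCGGAAG bound by GABP in 8.86%, the cyclic AMP element TGACGTCA in 1.79% and the STAT element TTCNNNGAA in 8.3%. The last bases of the ERR element are the AGGTCA of that repeat. Perm1, the member that fell furthest with hlOSM, was the member with the ERR element, on the reverse strand at -202 to -196 from the RefSeq start. The stretch shown is chr4:156215677-156215867 on the forward strand, up to the gene start in the table, with the element in capitals.
Perm1: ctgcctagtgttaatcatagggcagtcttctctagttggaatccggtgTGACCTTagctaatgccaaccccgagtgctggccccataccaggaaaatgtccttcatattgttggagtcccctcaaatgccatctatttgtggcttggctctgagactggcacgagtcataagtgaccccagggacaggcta
The other matches are shown with their flanks since they are elements for NRF1, for GABP and for STAT factors, the last of which act downstream of both cytokine receptors. The capitals mark the NRF1 core in Esrra (chr19:6921824-6921853, reverse strand, -34 to -27) and both overlapping NRF1 cores in Ppara (chr15:85735735-85735764, forward strand, -31 to -22). They mark the ETS core in Tfam (chr10:71238074-71238102, reverse strand, -47 to -41) and the STAT element in Esrrb (chr12:86360929-86360957, forward strand, -178 to -170).
Esrra: ccccctgttttGCATGCGCaggccggcccc
Ppara: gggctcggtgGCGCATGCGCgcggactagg
Tfam: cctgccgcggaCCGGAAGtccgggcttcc
Esrrb: aacggaaactTTCGTGGAAagcacttgag
The windows of Ppargc1a, Esrrg, Ppard and Nrf1 held none of these letters, which says nothing about the factors. A match is a description of the sequence and was not tested for binding.

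For the 6 members called in the test among the 4 conditions, the genes with the most similar pattern over the 12 libraries were found by Pearson correlation of log2 values. The 12 libraries share 4 conditions, so genes that moved between conditions score high, and r is given as a description. Nearest to Ppargc1a were Abca9 (r = 0.993), Ano5 (0.99) and Col6a2 (0.987). Nearest to Perm1 were Gm39214 (r = 0.993), Cand2 (0.99) and Akap1 (0.988). Esrrg was most like Hlcs (r = 0.985), the glucose transporter gene Slc2a4 (0.985) and Klhl31 (0.982). Ppard was most like Nav2 (r = 0.98), Klf13 (0.979) and Sema5a (0.973). Esrra was nearest to Snrk (r = 0.968), and Ppara to Pcolce (0.934).

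The regulators act with partners, and 26 partner receptors, coactivators and corepressors were tested. This list and the pathway lists below were written with earlier results of these data known. Their shares beside those of all genes are therefore descriptions. With hlOSM, 3 (11.5%) were higher and 12 (46.2%) lower than with PBS, against 18.2% and 19.8% of all tested genes, with a median log2 fold change of -0.14. With mOSM 3 (11.5%) were higher and 7 (26.9%) lower, against 15.4% and 15.8% of all genes. With mLIF 0 were higher and 4 (15.4%) lower in limma, against 5.47% and 4.44% of all genes, where 5 of the 26 had an unadjusted p under 0.05, as did 25.7% of all genes. The largest fall was in Mef2c, a muscle transcription factor that activates Ppargc1a, from 696, 624 and 701 with PBS to 373, 408 and 409 with hlOSM (log2 fold change -0.76, adjusted p = 1.22e-09). Pparg, the PPAR of fat cells, fell from 72, 61 and 70 to 41, 42 and 44 (-0.66, adjusted p = 0.00026). Rxrg, a retinoid X receptor that pairs with PPARs, had a log2 fold change of -0.56 (adjusted p = 0.00371). None of the PBS and hlOSM libraries overlapped for these genes. The rises included Nrip1, a corepressor of ERR and PPAR targets, from 602, 583 and 639 to 771, 777 and 797 (log2 fold change 0.36, adjusted p = 0.000118). Prox1, a partner of ERRα, rose by 0.44 on the log2 scale (adjusted p = 2.89e-05). The acetyltransferase gene Kat2a, whose product acetylates PGC-1α, had a log2 fold change of 0.33 (adjusted p = 0.0103), a call lost without PBS replicate 3 (0.0603) or hlOSM replicate 3 (0.059).

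Among 20 upstream kinases, phosphatases, deacetylases and transcription factors that set PGC-1α level or activity, 2 (10%) were higher and 3 (15%) lower with hlOSM, below the 18.2% and 19.8% of all tested genes. For mOSM 3 (15%) were higher and 3 (15%) lower, near the 15.4% and 15.8% of all genes, so neither count sets this list apart. For mLIF 3 (15%) were higher and 1 (5%) lower, against 5.47% and 4.44%. The mLIF count of 4 was 2 without PBS replicate 3 (4.79% of all genes called, against 9.91%) or mLIF replicate 1 (6.32%) and 1 without mLIF replicate 3 (3.82%). Camkk2, a kinase upstream of AMPK, rose from 209, 217 and 172 with PBS to 323, 321 and 409 with hlOSM (log2 fold change 0.81, adjusted p = 3.54e-07), without overlap. With mLIF its log2 fold change was 0.56 (adjusted p = 0.000562). Mapk14, which encodes the p38 kinase that activates PGC-1α, rose by 0.32 on the log2 scale with hlOSM (adjusted p = 0.00241). Foxo3 fell from 432, 459 and 543 to 345, 297 and 325 (log2 fold change -0.56, adjusted p = 4.73e-06). Prkaa2, the catalytic AMPK subunit of muscle, had a log2 fold change of -0.24 (adjusted p = 0.00225). Creb1, the factor that binds the cyclic AMP element, was at the edge of the threshold with hlOSM (log2 fold change -0.17, adjusted p = 0.0442), and its libraries overlapped. The Creb1 call was lost with no filter (0.0677), after quantile rescaling (0.0712), on the libraries compared alone (0.0721), with the replicate block (0.0766), and without any mLIF library, PBS replicate 1 or 3, or hlOSM replicate 1 or 2 (0.054 to 0.291).

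Of 32 lipid genes known as PPAR targets, 30 were tested. With hlOSM 4 (13.3%) were higher and 16 (53.3%) lower, against 18.2% and 19.8% of all tested genes, with a median log2 fold change of -0.19. With mOSM 4 (13.3%) were higher and 13 (43.3%) lower, against 15.4% and 15.8%, with a median of -0.17. With mLIF 1 (3.33%) was higher and 1 (3.33%) lower, both below the 5.47% and 4.44% of all genes. In limma, however, 12 of the 30 had an unadjusted p under 0.05 with mLIF, against 25.7% of all genes. The mOSM count of 17 was 10 without PBS replicate 3 (24.4% of all genes called, against 31.2%) and 11 without mOSM replicate 1 (26.4%). The mLIF count of 2 was 5 without PBS replicate 1 (8.97% of all genes called, against 9.91%) or hlOSM replicate 3 (11.8%), and 7 without mOSM replicate 3 (12.4%). It was 5 with a filter at 50 (14.4%) or either rescaling (10.7% and 10.1%), and 9 on the PBS and mLIF libraries alone (14.3%). Angptl4 ran opposite to the falls with mOSM and hlOSM. It encodes a secreted inhibitor of lipoprotein lipase and is a well known PPARδ target. The Angptl4 count rose from 158, 113 and 68 with PBS to 489, 562 and 715 with hlOSM. Its log2 fold change was 2.43 with hlOSM (SE 0.19, adjusted p = 1.58e-09), 2.33 with mOSM (adjusted p = 4.71e-09) and 1.23 with mLIF (adjusted p = 0.000376). Plin2, which coats lipid droplets, rose by 0.48 on the log2 scale with hlOSM (adjusted p = 3.32e-05), and the fatty acid transporter gene Slc27a1 by 0.31 (adjusted p = 0.00241). Vldlr, which takes up lipoproteins, fell from 1027, 1040 and 1109 to 583, 643 and 648 (log2 fold change -0.76, adjusted p = 2.19e-09). Plin5, which tethers lipid droplets to mitochondria, had a log2 fold change of -0.65 with hlOSM (adjusted p = 1.53e-05). The mitochondrial thioesterase gene Acot2 had a log2 fold change of -0.61 (adjusted p = 0.000198). Cpt1b, also counted as tested, had a mean of 10.5, and 81.38% of its exon bases overlap Gm44502 on its own strand.

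Of the 32 energy genes known as ERR and PGC-1 targets, most were not called. With hlOSM 0 were higher, 12 (37.5%) lower and 20 not called, against 18.2% higher and 19.8% lower over all tested genes. For mOSM 0 were higher, 10 (31.2%) lower and 22 not called, against 15.4% and 15.8%. For mLIF 0 were higher, 2 (6.25%) lower and 30 not called, near the 4.44% of all genes lower. In limma, 16, 16 and 12 had an unadjusted p under 0.05 with hlOSM, mOSM and mLIF, against 46.5%, 41.1% and 25.7% of all genes. In each comparison with PBS, 29 of the 32 log2 fold changes were below 0 and 3 above it, the latter including Cox5a and Cox6a2 each time. The median log2 fold change of the 32 was -0.13 for hlOSM, -0.13 for mOSM and -0.11 for mLIF. Over all tested genes the medians were -0.00525, -0.00432 and 0.00037. The comparisons use the same PBS libraries, so their directions are not independent results. The counts rested on single libraries. That of hlOSM was 7 without PBS replicate 1 (33.8% of all genes called, against 37.9%) or 3 (30.8%). That of mOSM was 5 without PBS replicate 1 (28% of all genes called, against 31.2%), 3 without PBS replicate 3 (24.4%), 2 without mOSM replicate 1 (26.4%), 4 without mOSM replicate 2 (25.1%) and 19 without mOSM replicate 3 (31.7%). That of mLIF was 1 without PBS replicate 1 (8.97% of all genes called, against 9.91%) or 3 (4.79%) or mLIF replicate 1 (6.32%) or 3 (3.82%), or with the replicate block (5.95%). It was 4 without mOSM replicate 3 (12.4%) and 6 on the PBS and mLIF libraries alone (14.3%). Vegfa, an angiogenic target of PGC-1α, fell from 461, 442 and 589 with PBS to 351, 328 and 291 with hlOSM (log2 fold change -0.61, adjusted p = 7.93e-06). Cycs, which encodes cytochrome c, had a log2 fold change of -0.30 (adjusted p = 0.00588), and the mitochondrial fusion gene Mfn2 had a log2 fold change of -0.26 (adjusted p = 0.000646). Against mLIF, 0 of the 32 were called with mOSM or hlOSM in limma, against 11.8% and 16.6% of all genes, and 0 and 3 had an unadjusted p under 0.05, against 24.4% and 28.6%. Quantile rescaling called 1 with hlOSM, and 18.1% of all genes.

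Of 21 nuclear genes for mitochondrial DNA upkeep, transcription and import, 3 (14.3%) were higher and 4 (19%) lower with hlOSM, not above the 18.2% and 19.8% of all tested genes. For mOSM 3 (14.3%) were higher and 1 (4.76%) lower, against 15.4% and 15.8%. For mLIF 1 (4.76%) was higher and 0 lower (limma, 3 at an unadjusted p under 0.05, against 25.7% of all genes), against 5.47% and 4.44%. No count of this list stood above that of all genes. Of the exon bases of Slirp, a gene of this list, 97.81% overlap Alkbh1 or Snw1 on the other strand. The hlOSM count of 7 was 4 without PBS replicate 1 (33.8% of all genes called, against 37.9%) or 3 (30.8%). The mOSM count of 4 was 2 without PBS replicate 2 (27.7%, against 31.2%) or 3 (24.4%) or mOSM replicate 2 (25.1%), on the libraries compared alone (29%) and with the replicate block (25.3%). The mLIF count of 1 was 0 without mLIF replicate 3 (3.82%, against 9.91%). The import receptor gene Tomm70a rose by 0.18 on the log2 scale with hlOSM (adjusted p = 0.0103), and the mitochondrial exonuclease gene Mgme1 had a log2 fold change of -0.32 (adjusted p = 0.00225). Timm17a, a channel subunit, had a log2 fold change of -0.19 (adjusted p = 0.0245), a call lost without PBS replicate 1 (0.0574) or 3 (0.0754) or hlOSM replicate 1 (0.142) or 2 (0.0791). The DNA polymerase gene Polg had a log2 fold change of -0.17 (adjusted p = 0.0486). Its call was lost with a pseudocount of 0.1 (0.0502), no filter (0.0744) or either rescaling (0.0556 and 0.0926), with the replicate block (0.0769), and without any PBS or mLIF library, mOSM replicate 1, or hlOSM replicate 1 or 3 (0.0547 to 0.186). Transcripts encoded by mitochondrial DNA were not analysed here.

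Marker genes of the cell types a heart preparation may hold were read beside these results. All 8 cardiomyocyte markers were expressed, Ttn being the most abundant, and their summed normalized count was 48550, 48201 and 50117 with PBS and 43641, 41849 and 42040 with mLIF. It was 34924, 33853 and 37907 with mOSM and 34690, 37137 and 36141 with hlOSM. Of the 8, 6 were lower under mLIF, 7 under mOSM and 7 under hlOSM, against 4.44%, 15.8% and 19.8% of all tested genes. Most of each sum is Ttn, whose means were 32920 for PBS, 28730 for mLIF, 22910 for mOSM and 23560 for hlOSM. The means of the sum were 48960, 42510, 35560 and 35990 in the same order. With mOSM and hlOSM the summed cardiomyocyte markers were thus lower together with Ppargc1a, Perm1 and Esrrg, and with mLIF together with Perm1, while Ppargc1a and Esrrg were not called there. Median log2 fold changes of the lipid genes were also negative, at -0.095 with mLIF, -0.17 with mOSM and -0.19 with hlOSM. Those of the energy genes were -0.11, -0.13 and -0.13 in the same order. Those of the cardiomyocyte markers were -0.23, -0.32 and -0.34. The sum of 8 endothelial markers, led by Kdr, was 1221, 1262 and 1188 with PBS, 1263, 1201 and 1266 with mLIF, 1471, 1577 and 1700 with mOSM, then 1577, 1477 and 1590 with hlOSM. Of these, 6 of 8 were higher with mOSM and with hlOSM, against 15.4% and 18.2% of all tested genes. The sum of 7 smooth muscle and pericyte markers, led by Cspg4, was 956, 1004 and 1201 with PBS. It was 947, 891 and 946 with mLIF, 729, 677 and 691 with mOSM, then 621, 637 and 617 with hlOSM. Of these 7, 5 were lower under mOSM and 6 under hlOSM, against 15.8% and 19.8% of all tested genes. The 8 fibroblast markers, led by Col3a1, summed to 2297, 2296 and 2526 with PBS, 2189, 2251 and 2110 with mLIF, 2459, 2461 and 2885 with mOSM, then 2499, 2307 and 2540 with hlOSM. With mOSM 2 of these 8 were higher and 3 lower than with PBS, against 15.4% and 15.8% of all tested genes. For hlOSM 3 were higher and 5 lower, against 18.2% and 19.8%. Means went from 399 with PBS to 850 with mOSM for Col3a1, and from 484.7 to 260.3 for Col1a2. The 8 leukocyte markers, led by Lyz2 and 5 of them tested, summed to 301, 320 and 309 with PBS, 308, 281 and 325 with mLIF, 345, 392 and 370 with mOSM, then 354, 319 and 389 with hlOSM. Of the 5 tested, 1 was higher and 0 lower with mLIF and with mOSM, and 1 was higher and 1 lower with hlOSM. The shares of all tested genes were 5.47%, 15.4% and 18.2% higher and 4.44%, 15.8% and 19.8% lower, in the order mLIF, mOSM and hlOSM. Cd68 carries the larger sums, at a mean of 53.7 with PBS, 125.3 with mOSM and 132.3 with hlOSM. Lyz2 was at 176.3, 156.3 and 146. No marker of any list was at 0 in every library. The part of a shift in cell makeup in the changes of the regulators was not tested.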

How the data were processed

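Bulk RNA sequencing (stranded total RNA kit) gave 12 libraries. The authors aligned the reads to mm10 with STAR 2.7.7a and counted them per gene with featureCounts 1.6.5 (submitters' processing notes). The deposited values are normalized counts scaled and rounded by the authors, treated here as a score and not as raw counts; the scaling method is not given in the sources used here.

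Genes at 10 or more in at least 3 libraries were fitted in limma 3.58.1 (R 4.3.3) as log2(value + 1) with a mean-variance trend, all 4 conditions together. Tests were two-sided, with Benjamini-Hochberg adjustment over all 13184 genes. The fit was tested on simulated data with 200 genes changed, for hlOSM against PBS. It recovered 65.5% of changes of 0.5 on the log2 scale (12 false calls) and 91.5% of changes of 1 (10 false calls). The simulated noise was independent between libraries and had the variances of this fit. It therefore cannot show whether the errors of the fit are too small. Exon lengths came from GENCODE annotation of GRCm38. Alternatives varied pseudocount, filter, scaling, fit, libraries, block and threshold. From each pathway list, the 3 largest called rises and falls with hlOSM against PBS at a mean of at least 50 were named; the 3 nearest patterns per member were found among tested genes. Members and lists were chosen with earlier results of these data known.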

Additional observations from a re-analysis of the deposited data

How the results depend on the processing

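Of 24 differences of single members called in the comparisons, 17 were called under every alternative tried and 7 lost the call under at least 1, and none changed sign. Of 46 not called, the 10 departures from additivity included, 7 passed under at least 1 alternative. With an adjusted p under 0.01, 4 members were called with mOSM against PBS (7 in the reported fit; 20.6% of all genes in place of 31.2%) and 0 with hlOSM against mOSM (1 in the reported fit; 0.00758% in place of 0.106%), as a stricter threshold must give fewer. On the libraries compared alone, 2 members were called with mLIF against PBS in place of 1, while all genes called went from 9.91% to 14.3%, and 0 with hlOSM against mOSM, where 0 of 12591 genes were called; the cause was not tested. Without single libraries the count ranged from 4 to 7 with mOSM against PBS (24.4% to 32.8% of all genes), from 0 to 1 with hlOSM against mOSM (0.00761% to 0.13%), from 4 to 5 with hlOSM against PBS (30.8% to 40.2%), and was 1 each time with mLIF against PBS (3.82% to 12.4%). Deviations from the condition means were negatively correlated over genes between same-numbered libraries in every pair. The correlation was -0.406 to -0.151 over 18 pairs, against 0.004 to 0.328 for other pairs. Replicate numbers held 1.7% of the sum of squares within conditions but take 25% of the residual df, so the block fit has the larger errors; how this came about is not given in the sources used here. No library correlated best with its own number. With the replicate number as a block, 0 members were called with hlOSM against mOSM, 5 with mOSM against PBS, 4 with hlOSM against PBS, 5 with mOSM against mLIF (6 in the reported fit), 4 with hlOSM against mLIF (5) and 1 with mLIF against PBS, where 0.0152%, 25.3%, 31.2%, 8.81%, 12.2% and 5.95% of all genes were called, fewer than without the block each time. Pseudocounts of 0.1 and 5, both rescalings and the robust fit left each count of members within 1 of the reported count. The standard error of a log2 fold change was largest for Ppargc1b (0.15) and Ppara (0.14) and smallest for Ppargc1a (0.06); what depth limits was not tested. The scaling by the authors cannot be undone from rounded values.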
